A study of Mus musculus with 40 samples.

Results

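The lysosomal set described here holds 37 genes for enzymes, cofactors, membrane proteins and regulators of the lysosome. Its members were chosen by gene symbol, and all 37 were matched to 1 row each of the 49585 gene rows through their Ensembl mouse identifiers. RNA was measured in 40 libraries from the marrow of the femurs and tibiae of 10 mice of mixed C57BL6/129Ola background, aged 46 to 51 days. Control mice carried Mbd3 alleles flanked by loxP sites on both chromosomes (Mbd3 Flox/Flox, 5 mice), and Mbd3del mice carried the deleted allele on both (Mbd3 Del/Del, 5 mice). Mbd3 is a subunit of the NuRD chromatin remodelling complex. The labels do not give the recombinase that deleted Mbd3, nor the cells in which it acts. Each mouse gave 1 pool of each of 4 sorted populations, so that each of the 8 groups had 5 libraries. Haematopoietic stem cells (HSC) were CD150+ CD48- EPCR+. The other populations were Lin- Sca-1+ c-Kit+ and high for Flt3. Among these, lymphoid-primed multipotent progenitors (LMPP) lacked IL-7Ra, all-lymphoid progenitors (ALP) carried IL-7Ra but no Ly6D, and BLP, the B cell-biased lymphoid progenitors, carried both. Pools of 100 or 150 cells were sequenced with Smart-seq2, a full-length protocol without molecular identifiers or strand information.

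Lysosomes are acidic organelles that break down proteins, sugars, lipids and nucleic acids delivered by endocytosis and autophagy. Cathepsins and legumain are their proteases, glycosidases and sulfatases shorten sugar chains, and lipid hydrolases work with small activator proteins that lift lipids out of membranes. The transcription factor TFEB and its relatives MITF, TFE3 and TFEC bind the letters CACGTG, often within the longer TCACGTGA, near the start of many lysosomal genes. In blood cells, cathepsin S and legumain are best known for processing antigens and the invariant chain of MHC class II in antigen-presenting cells.

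Promoters, defined as the 250 bases before and 50 bases after an annotated start, were available for 33 of the 37 members from RefSeq on GRCm38.p6. Ctsb, Ctsh, Npc1 and Asah1 had no entry used here. CACGTG was found in 12 of the 33 members (36.4%) and in 2187 of all 27025 genes with a promoter of this length (8.09%). The longer TCACGTGA, which contains CACGTG, was found in 5 members (15.2%) and in 304 genes overall (1.12%). Both motifs read the same on either strand, so 1 search covered both. A match describes the letters and is not evidence of binding. The 5 promoters below are shown because Lgmn, Gm2a and Ctss were called most often between populations (in 4 of 8 comparisons each), while Lamp1 and Ctsa are examples with several matches. They are written 5′ to 3′ on the strand of the gene, with CACGTG in capitals. Lgmn, encoding legumain, is on the minus strand at chr12:102439043-102439342 and holds CACGTG once. Gm2a, encoding the GM2 activator, is on the plus strand at chr11:55097735-55098034 and holds none. Ctss, encoding cathepsin S, is on the plus strand at chr3:95526536-95526835 and also holds none. Ctsa, encoding cathepsin A, is on the plus strand at chr2:164833523-164833822 and holds 2, both within TCACGTGA. Lamp1, encoding an abundant glycoprotein of the lysosomal membrane, is on the plus strand at chr8:13158911-13159210 and holds 4.
Lgmn: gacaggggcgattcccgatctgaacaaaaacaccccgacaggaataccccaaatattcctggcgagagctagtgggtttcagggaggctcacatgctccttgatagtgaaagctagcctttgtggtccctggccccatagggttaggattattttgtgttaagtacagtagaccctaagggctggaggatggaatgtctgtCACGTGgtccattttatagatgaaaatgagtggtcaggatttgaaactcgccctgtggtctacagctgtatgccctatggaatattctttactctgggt
Gm2a: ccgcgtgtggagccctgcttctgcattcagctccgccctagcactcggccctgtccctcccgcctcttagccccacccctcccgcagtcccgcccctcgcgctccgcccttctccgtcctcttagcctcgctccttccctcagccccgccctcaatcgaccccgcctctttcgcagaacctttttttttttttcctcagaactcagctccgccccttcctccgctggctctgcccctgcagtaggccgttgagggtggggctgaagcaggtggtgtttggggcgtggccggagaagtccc
Ctss: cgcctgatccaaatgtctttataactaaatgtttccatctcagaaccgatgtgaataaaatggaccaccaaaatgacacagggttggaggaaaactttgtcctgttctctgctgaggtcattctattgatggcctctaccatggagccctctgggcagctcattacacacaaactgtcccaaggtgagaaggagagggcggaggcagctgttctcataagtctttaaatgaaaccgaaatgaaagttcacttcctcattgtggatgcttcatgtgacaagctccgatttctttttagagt
Ctsa: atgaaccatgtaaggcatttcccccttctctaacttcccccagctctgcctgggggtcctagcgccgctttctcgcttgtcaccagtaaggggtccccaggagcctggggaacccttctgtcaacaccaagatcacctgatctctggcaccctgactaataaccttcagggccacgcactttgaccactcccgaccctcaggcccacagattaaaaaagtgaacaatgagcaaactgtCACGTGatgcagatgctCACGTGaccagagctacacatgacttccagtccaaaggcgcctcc
Lamp1: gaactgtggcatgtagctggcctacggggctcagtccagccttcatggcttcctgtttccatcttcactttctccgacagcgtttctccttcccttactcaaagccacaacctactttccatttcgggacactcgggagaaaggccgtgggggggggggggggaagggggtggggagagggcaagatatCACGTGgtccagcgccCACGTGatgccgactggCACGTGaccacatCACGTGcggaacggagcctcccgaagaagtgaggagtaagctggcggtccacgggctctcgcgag
Of Lgmn, Gm2a and Ctss, 1 thus held the motif in a printed promoter. A second annotated Lgmn start, at chr12:102439679-102439978, had no CACGTG in its window, and neither did a second Ctsa start, at chr2:164832622-164832921. These motif-free windows hold the outermost annotated start of each gene (chr12:102439813 and chr2:164832873). The printed Lgmn and Ctsa windows belong to starts further downstream.

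Libraries held 2974305 to 9082610 gene counts and 12845 to 15745 detected genes, so that 3 counts corresponded to 0.330 to 1.01 CPM. CPM is the usual scaling of a count to the total gene count of its library, without further normalization. Mbd3 itself, the check of the genotype labels, stood at 8.18 CPM or more in every control library and at 3.24 CPM or less in every Mbd3del library. The sort markers followed the gates: mean Procr, which encodes EPCR, was 126 and 159.7 CPM in control and Mbd3del HSC and 0.25 and 0.11 CPM in BLP. Mean Ly6d was 85.5 and 269 CPM in ALP and 7785 and 9902 CPM in BLP. The titles of the Mbd3del LMPP libraries name the allele floxed, while their genotype field and Mbd3 level correspond to the deletion. Control mouse10372 and mouse10381 expressed sex-linked transcripts that went against their labelled sex, so results that change without them are given both ways. In such pools, fewer cells of a type and less RNA per cell cannot be told apart.

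All 37 members were detected, at very different levels. Summed over the set, the level was 5166 ± 593 CPM (SD, n = 5) in control HSC, 5192 ± 398 in LMPP, 5796 ± 944 in ALP and 6548 ± 763 in BLP, and all means below are given ± SD over 5 libraries or mice where a second number follows. In Mbd3del mice it was 4689 ± 342, 4913 ± 741, 5071 ± 464 and 7427 ± 1263 CPM in the same order. Gm2a made up 12.8% of the summed level, and the 5 highest members 45.6%. Per kilobase of exon, which allows a rough comparison of genes, the order of mean levels over the 40 libraries began with Ctss at 183 CPM per kilobase. Gm2a stood at 173 and Ctsz, encoding cathepsin Z, at 123. Cd164, encoding the sialomucin endolyn, followed at 107, and Npc2, which carries cholesterol out of the lysosome lumen, at 97.0. This order depends on the annotated exon length used, such as 1.358 kilobases for Ctss and 5.438 for Npc2. It also pools populations and did not hold in each. Ctss and Gm2a led in this order in ALP and BLP of both genotypes, but in control HSC Asah1, encoding acid ceramidase, led at 145 CPM per kilobase, followed by Ctsz at 115 and Gm2a at 103, with Ctss at 51.3. In control LMPP Gm2a led at 269 and Ctss followed at 148, and in Mbd3del LMPP Cd164 (113), Gm2a (111), Ctsz (107) and Ctss (105) lay within their spread. The lowest were the sulfatase genes Arsa (2.11) and Arsb (1.03) and the regulator Tfeb (0.525), whose libraries ranged from 0 to 24.9 CPM. The first pair, Ctss and Gm2a, differed by less than their spread within groups (median coefficients of variation of 0.282 and 0.250), as did Cd164 (0.240) from Npc2. The median coefficient of variation within groups was 0.439 over the 36 members with a mean of at least 5 CPM. It was 0.443 over all 10225 genes with such a mean. Npc2 varied least between libraries of a group (0.120) and Arsa most (1.01).

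Grouped by role, the classes differed in how their summed levels ran over the populations. The 10 proteases (cathepsins, legumain and tripeptidyl peptidase) summed to a mean of 1612 CPM in control HSC, 1308 in LMPP, 1952 in ALP and 2224 in BLP, and to 1478, 1408, 1584 and 3136 CPM in Mbd3del mice. In BLP the protease sums overlapped, at 1711 to 3060 CPM in control and 2554 to 4552 CPM in Mbd3del libraries. Ctsb alone had BLP means of 662 and 1244 CPM, a large part of that difference. The 12 hydrolases of sugars, sulfates and phosphates had means between 522 and 661 CPM in all 8 groups. Single libraries varied more widely, from 238 CPM in control LMPP to 1255 CPM in Mbd3del LMPP. The 8 genes of lipid handling ran from 1811 CPM in control HSC to 2807 in control BLP, and from 1369 to 2341 CPM in Mbd3del mice. Their sums did not overlap between the genotypes in LMPP, at 1987 to 2916 CPM in control and 1528 to 1935 CPM in Mbd3del libraries. Gm2a, a single gene of this class, had means there of 1112 and 459 CPM, beside class means of 2294 and 1664 CPM. The difference thus lies largely in Gm2a and is not shown for the class as a whole. Between control HSC and BLP Gm2a went from a mean of 426 to 1327 CPM, most of the rise of the class. The 5 membrane proteins had means of 902 to 1079 CPM in control and 898.5 to 1209.7 CPM in Mbd3del populations. These sums are descriptions, and the tests below were made gene by gene.

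**Figure D1:**
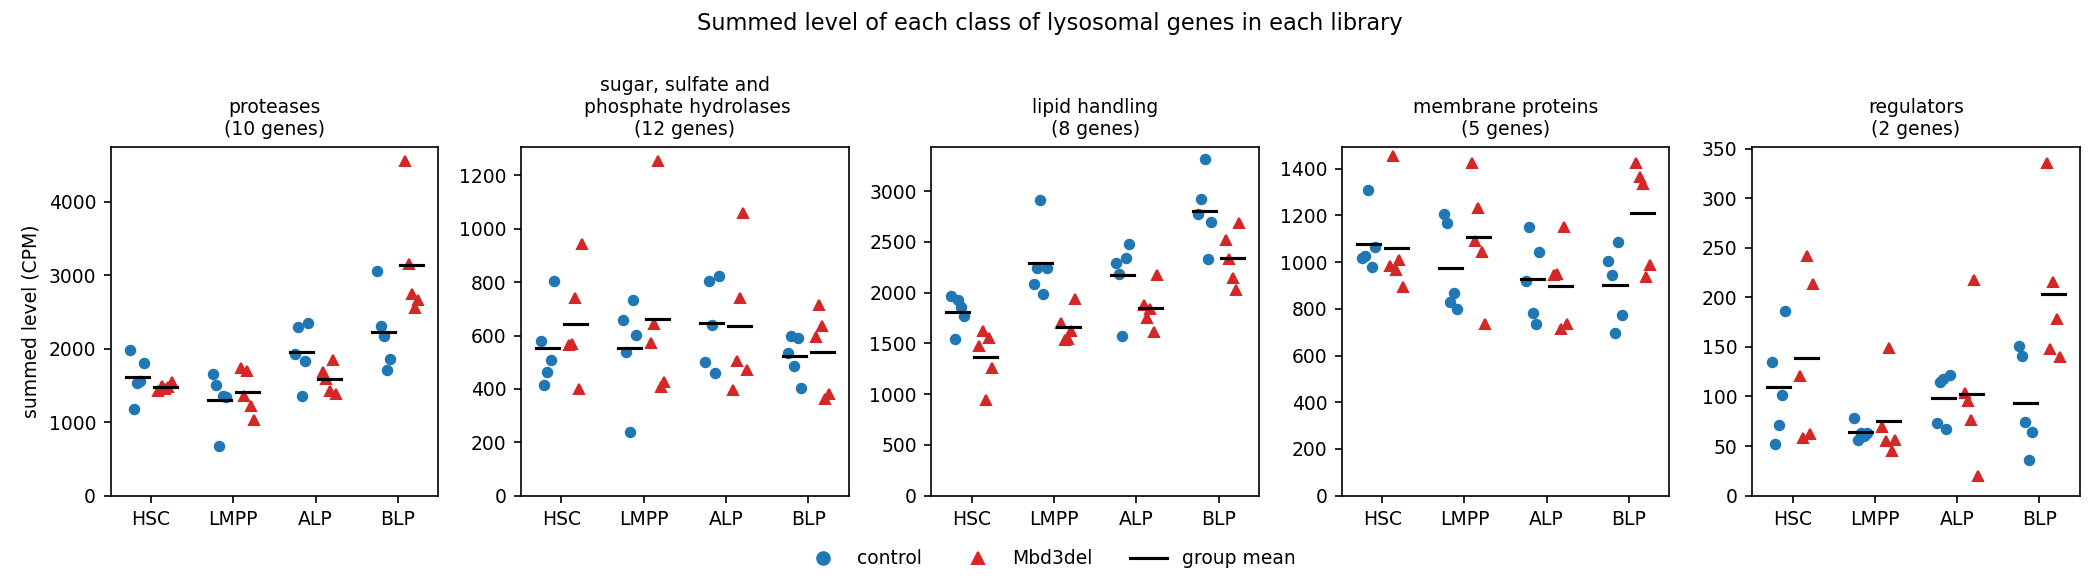
Summed level in CPM (vertical axis, from 0) of the 5 classes of lysosomal genes in each of the 40 libraries, by population (horizontal axis). Circles are control and triangles Mbd3del libraries, and lines are group means. Proteases have their highest mean in Mbd3del BLP (3136 CPM), where libraries overlap with control and Ctsb alone has means of 662 CPM in control and 1244 CPM in Mbd3del. Lipid handling does not overlap between genotypes in LMPP, where Gm2a alone has means of 1112 CPM in control and 459 CPM in Mbd3del libraries.

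The first question was whether the lysosomal set differs between Mbd3del and control mice. No member of the set passed the threshold (edgeR quasi-likelihood test, Benjamini-Hochberg adjusted p under 0.05 over all genes tested) between the genotypes in any population. In HSC, 0 of the 34 members tested were called, 3 had an unadjusted p under 0.05 and DESeq2 called 0. In LMPP, 0 of 36 were called, 3 had an unadjusted p under 0.05 and DESeq2 called 1, Gm2a. In ALP, 0 of 37 were called, 2 had an unadjusted p under 0.05 and DESeq2 called 1, Lgmn. In BLP, 0 of 37 were called, 7 had an unadjusted p under 0.05 and DESeq2 called 2, Ctsb and Grn. With the 4 libraries of each mouse summed, 0 of 37 were called, 5 had an unadjusted p under 0.05 and DESeq2 called 2, Gm2a and Lgmn. Lgmn, Arsb and Tfeb in HSC, and Tfeb in LMPP, did not pass the filter on low counts and were not tested.

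These counts stand beside a background of few calls in all genes. The share of all genes called was 0.0176% in HSC, 0.0183% in LMPP, 0.0182% in ALP, 0.0743% in BLP and 0.173% in the mouse sums. The share with an unadjusted p under 0.05 was 4.11%, 5.19%, 2.3%, 8.31% and 8.03% in the same order. The members' log2 fold changes, Mbd3del over control, were positive for 14 and negative for 20 in HSC, 20 and 16 in LMPP, 13 and 24 in ALP, 17 and 20 in BLP, and 20 and 17 in the mouse sums. Their medians were -0.12 in HSC, 0.06 in LMPP, -0.13 in ALP, -0.05 in BLP and 0.02 in the mouse sums, beside 0.02, 0.01, -0.04, -0.03 and -0.00 over all genes tested. Over the other settings tried the members' medians ranged from -0.18 to -0.06 in HSC, -0.08 to 0.16 in LMPP, -0.21 to -0.09 in ALP, -0.10 to 0.03 in BLP and -0.05 to 0.04 in the mouse sums, so that the sign was kept in HSC and ALP and not in the others. A lack of calls does not show equal levels. Approximate 95% intervals lay inside a log2 fold change of ±1 for 31 of the 37 members in the mouse sums, but for 15 of 34, 14 of 36, 19 of 37 and 15 of 37 in HSC, LMPP, ALP and BLP. The intervals assume a normal distribution and are narrower than the quasi-likelihood test implies, so these counts can be too high. Cd164 in BLP, for example, had an interval of 0.00384 to 0.657 with an unadjusted p of 0.067 by edgeR.

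**Figure D2:**
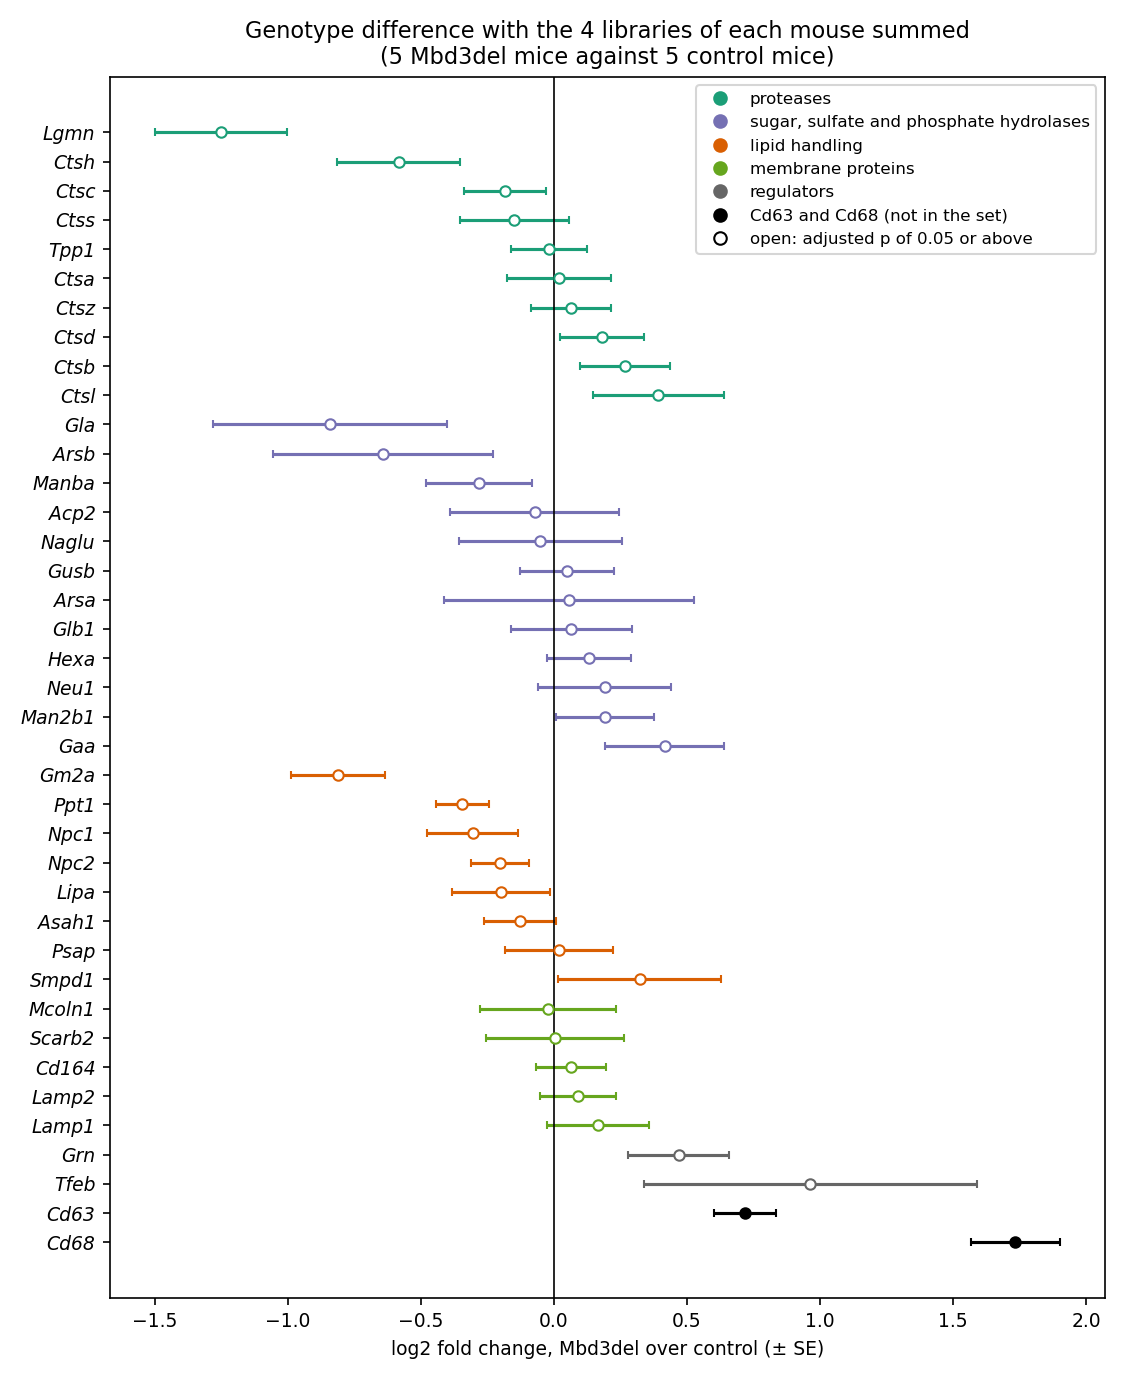
Log2 fold change, Mbd3del over control (horizontal axis, bars ± SE), of the 37 members by class and of Cd63 and Cd68, with the libraries of each mouse summed (5 mice against 5). All members are drawn open (adjusted p of 0.05 or above), from Lgmn at -1.25 to Tfeb at 0.96, while Cd63 (0.72) and Cd68 (1.73) are filled.

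The members named next were picked after their values were seen, as those with an unadjusted p under 0.05. Among the proteases, Lgmn, which cleaves after asparagine and lies at chr12:102394084-102439813 (GRCm38, minus strand), had the smallest adjusted p among the members in the mouse sums. Its summed levels per mouse were 30.1, 77.7, 78.01, 82.8 and 85.7 CPM in control and 26.8, 26.98, 28.9, 35.1 and 35.5 CPM in Mbd3del mice, in ascending order. Apart from control mouse10372 at 30.1 CPM, every control mouse lay above every Mbd3del mouse. The log2 fold change was -1.25 ± 0.25 (SE), unadjusted p = 0.000199, adjusted p = 0.0862 by edgeR. Without control mouse10372 it was -1.44 with an adjusted p of 0.00254, and without control mouse10372 and mouse10381 -1.47 with 0.0165. Over all settings tried the adjusted p ran from 0.000214 (DESeq2) to 0.307 (limma on mean log2 CPM per mouse). By population, the difference was widest in ALP, where control libraries held 43.1, 120.2, 137, 157 and 164 CPM and Mbd3del libraries 9.38, 22.1, 29.7, 42.03 and 54.4 CPM. The lowest control library, again of mouse10372, lay among the Mbd3del libraries. The log2 fold change in ALP was -1.96 ± 0.48 (SE), unadjusted p = 0.000949, adjusted p = 0.87. In BLP the levels were 63.1, 143, 149, 151 and 162 CPM in control and 59.2, 60.3, 82.3, 99.5 and 106 CPM in Mbd3del libraries, overlapping through mouse10372 (log2 fold change -0.70 ± 0.27 (SE), unadjusted p = 0.0231, adjusted p = 0.481). In LMPP the ranges overlapped throughout, at 3.70 to 18.9 and 3.87 to 20.6 CPM.

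Other proteases had an unadjusted p under 0.05 in 1 population each, in both directions. Ctsb, encoding cathepsin B, held 322, 485, 579.7, 724 and 1197 CPM in control BLP and 959, 1050.5, 1079, 1196 and 1935 CPM in Mbd3del BLP. A single control library, of mouse10357, reached into the Mbd3del range, and the log2 fold change was 0.94 ± 0.29 (SE), unadjusted p = 0.00588, adjusted p = 0.332. In BLP, Ctsl (cathepsin L) and Ctsz also had higher means in Mbd3del mice, with log2 fold changes of 0.86 ± 0.40 (SE) and 0.82 ± 0.30 (SE). Ctsd, the aspartic protease cathepsin D, had a higher mean in Mbd3del LMPP (173 ± 76.9 against 86.1 ± 35.95 CPM, log2 fold change 0.92 ± 0.32 (SE)). Ctsh in ALP and Ctss in LMPP had lower means there, with log2 fold changes of -1.23 ± 0.49 (SE) and -0.62 ± 0.27 (SE). None of these passed after adjustment, and their adjusted p ran from 0.332 for Ctsb in BLP to 0.9999 for Ctsh in ALP. In ALP 9 of the 10 proteases had a negative log2 fold change and 1 a positive, and in the mouse sums 5 were negative and 5 positive.

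Among the genes of lipid handling, Gm2a had the lower mean in Mbd3del mice in each of the 4 populations. Gm2a, at chr11:55098115-55113029 on the plus strand, encodes the protein that presents ganglioside GM2 to beta-hexosaminidase A. Control HSC libraries held 356, 378, 386, 480.5 and 530.0 CPM and Mbd3del HSC libraries 131, 209, 259, 266 and 272 CPM, without overlap (log2 fold change -0.97 ± 0.24 (SE), unadjusted p = 0.0011, adjusted p = 0.955). In LMPP the values were 811, 822, 1019.8, 1169 and 1737 CPM in control and 332, 418, 441, 463 and 638 CPM in Mbd3del, also without overlap. The highest of them was control mouse10372, and the log2 fold change was -1.43 ± 0.29 (SE), unadjusted p = 0.000259, adjusted p = 0.15. In ALP the groups overlapped, with means of 689 ± 176 and 587 ± 214 CPM and a log2 fold change of -0.19 ± 0.34 (SE). In BLP the means were 1327 ± 241 in control and 888 ± 189 CPM in Mbd3del, with overlap and a log2 fold change of -0.57 ± 0.19 (SE), unadjusted p = 0.00891, adjusted p = 0.363. Summed per mouse, control mice held 747, 825, 885, 941 and 1259 CPM and Mbd3del mice 442, 442, 535, 552 and 767 CPM, where the highest Mbd3del mouse, mouse10384, lay above the lowest control mouse. The log2 fold change was -0.81 ± 0.18 (SE), unadjusted p = 0.000443, adjusted p = 0.114, and the adjusted p ran from 0.00206 to 0.305 over the settings tried. In LMPP it ran from 0.000911 to 0.521.

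Ppt1, encoding the thioesterase that removes palmitate from proteins, did not overlap between the genotypes in the mouse sums. It stood at 324, 329, 330.2, 355 and 380.5 CPM in control and 264, 272, 279.6, 280.5 and 305 CPM in Mbd3del mice, a small difference (log2 fold change -0.34 ± 0.10 (SE), unadjusted p = 0.004, adjusted p = 0.312). In HSC 7 of the 8 genes of lipid handling had a negative log2 fold change, and in the mouse sums 6 of 8.

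The sugar, sulfate and phosphate hydrolases were mixed, with 7 positive and 5 negative log2 fold changes in the mouse sums, from -0.84 for the alpha-galactosidase gene Gla to 0.42 for Gaa. Gaa, the acid alpha-glucosidase that degrades glycogen, had a higher mean in Mbd3del HSC (95.2 ± 63.3 against 50.3 ± 14.95 CPM, log2 fold change 0.78 ± 0.36 (SE)). Neu1, the sialidase that acts in a complex with cathepsin A, had a lower mean there (13.6 ± 6.75 against 28.4 ± 13.8 CPM, log2 fold change -1.17 ± 0.51 (SE)). The libraries of both genes overlapped between the genotypes, and both had an adjusted p of 0.955.

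The membrane proteins were the class with the smallest differences, from -0.02 to 0.17 (Lamp1) in the mouse sums. Scarb2, the receptor that carries glucocerebrosidase to the lysosome, had the log2 fold change nearest to 0. Per mouse it stood at 25.1, 34.6, 38.3, 42.4 and 48.5 CPM in control and 22.1, 31.5, 32.5, 50.6 and 57.7 CPM in Mbd3del mice, fully overlapping. Its log2 fold change was 0.00 ± 0.26 (SE) with an approximate 95% interval of -0.51 to 0.51. In HSC 1 control library, of mouse10380, held 0.179 CPM of Scarb2 while the other 4 held 38.1 to 61.8 CPM. Lamp2, the partner of LAMP1 and receptor of chaperone-mediated autophagy, had a higher mean in Mbd3del BLP (337 ± 114 against 193 ± 91.3 CPM), with a log2 fold change of 0.82 ± 0.29 (SE) that did not pass after adjustment.

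Of the regulators, Grn encodes progranulin, a secreted and lysosomal protein needed for enzyme activity. In BLP its control libraries held 32.7, 63.7, 69.1, 135 and 148 CPM and its Mbd3del libraries 138, 146, 179, 212 and 330.0 CPM. The highest control library lay above the lowest 2 Mbd3del libraries, and the log2 fold change was 1.20 ± 0.36 (SE), unadjusted p = 0.00525, adjusted p = 0.323. In the mouse sums Grn ranged from 62.0 to 111.6 CPM in control and from 83.8 to 160.3 CPM in Mbd3del mice (log2 fold change 0.47 ± 0.19 (SE)). Tfeb, the transcription factor of the set, was too low for a comparison of its libraries one by one.

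Markers of other cells differed beside these BLP values. The 12 dendritic markers summed to 929 to 1977 CPM in control BLP and 1999 to 3948 CPM in Mbd3del BLP, without overlap. In Mbd3del BLP 11 of the 12 had counts, and Batf3 was at 0 in both groups. Irf8 (mean 1141 against 625 CPM in control) and Siglech (606 against 267 CPM) were the highest of those named here. Of the 9 dendritic markers tested in BLP, 0 were called by edgeR, 2 had an unadjusted p under 0.05 and DESeq2 called 2, and all 9 had positive log2 fold changes. In the mouse sums 1 of 11, H2-Aa, was called, from 34.6 ± 10.1 to 81.04 ± 14.01 CPM (log2 fold change 1.18, adjusted p = 0.0461). The 12 macrophage markers summed to 4.43 to 40.1 CPM in control and 15.8 to 31.3 CPM in Mbd3del BLP, with Adgre1 at 0 in all 10 libraries. The 15 monocyte and neutrophil markers summed to 197 to 417 and 244 to 683 CPM. The part of these cells in the levels of Ctsb, Grn and the other members was not tested.

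Cd63 and Cd68, genes of lysosomal membrane glycoproteins outside the set, were called between genotypes, a change known from earlier results of these data. In the mouse sums their log2 fold changes were 0.72 ± 0.12 and 1.73 ± 0.17 (SE), with adjusted p of 0.03997 and 0.000520. The range over the 37 members was -1.25 to 0.96, which includes the value of Cd63. Its upper end was Tfeb alone, at a mean of 2.98 CPM over all libraries and with 5 of 40 libraries at 0. In HSC Cd63 (0.24) and in LMPP both genes (0.94 and 1.31) also lay inside the members' ranges of -1.17 to 0.78 and -1.43 to 2.12. Cd68 in HSC (2.68) lay outside the range. The upper end in LMPP was Neu1, with an SE of 1.18 and a control mean of 5.24 CPM, followed by Smpd1 at 1.68 ± 0.86 (SE). In ALP Cd63 (3.11) and Cd68 (1.13) both lay outside the members' range of -1.96 to 0.58. In BLP Cd63 and Cd68 stood at 3.12 ± 0.41 and 2.87 ± 0.39 (SE), both with an adjusted p of 0.0105, beside a range of -1.42 to 1.20 over the 37 members. Whether the set differs from these genes was not tested. In 40 other lysosomal genes listed, these were the genes called in BLP and in the mouse sums (2 of 37 and 2 of 38 tested). Cd63 was the gene called in ALP (1 of 37), and none was called in HSC or LMPP (0 of 38 each). There 2 each had an unadjusted p under 0.05 and DESeq2 called 1 each.

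Genes that supply the compartment did not pass in any genotype comparison by edgeR. Among 16 subunits of the V-ATPase, the proton pump that acidifies lysosomes, 0 were called in HSC, LMPP, ALP, BLP or the mouse sums, 0, 1, 0, 2 and 0 had an unadjusted p under 0.05, and DESeq2 called 0. In HSC 13 of the 16 and in the mouse sums 12 of the 16 had negative log2 fold changes, with medians of -0.12 and -0.06. For 16 genes that deliver enzymes to lysosomes, such as the mannose 6-phosphate receptors, 0 were called, 2, 1, 1, 2 and 1 had an unadjusted p under 0.05, and DESeq2 called 1 in the mouse sums and 0 elsewhere. For 17 genes of the TFEB family and of nutrient sensing at the lysosome, 0 were called, 2, 1, 0, 0 and 2 had an unadjusted p under 0.05, and DESeq2 called 0. For 14 autophagy genes, 0 were called, 0, 0, 1, 0 and 0 had an unadjusted p under 0.05, and DESeq2 called 0.

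**Figure D3:**
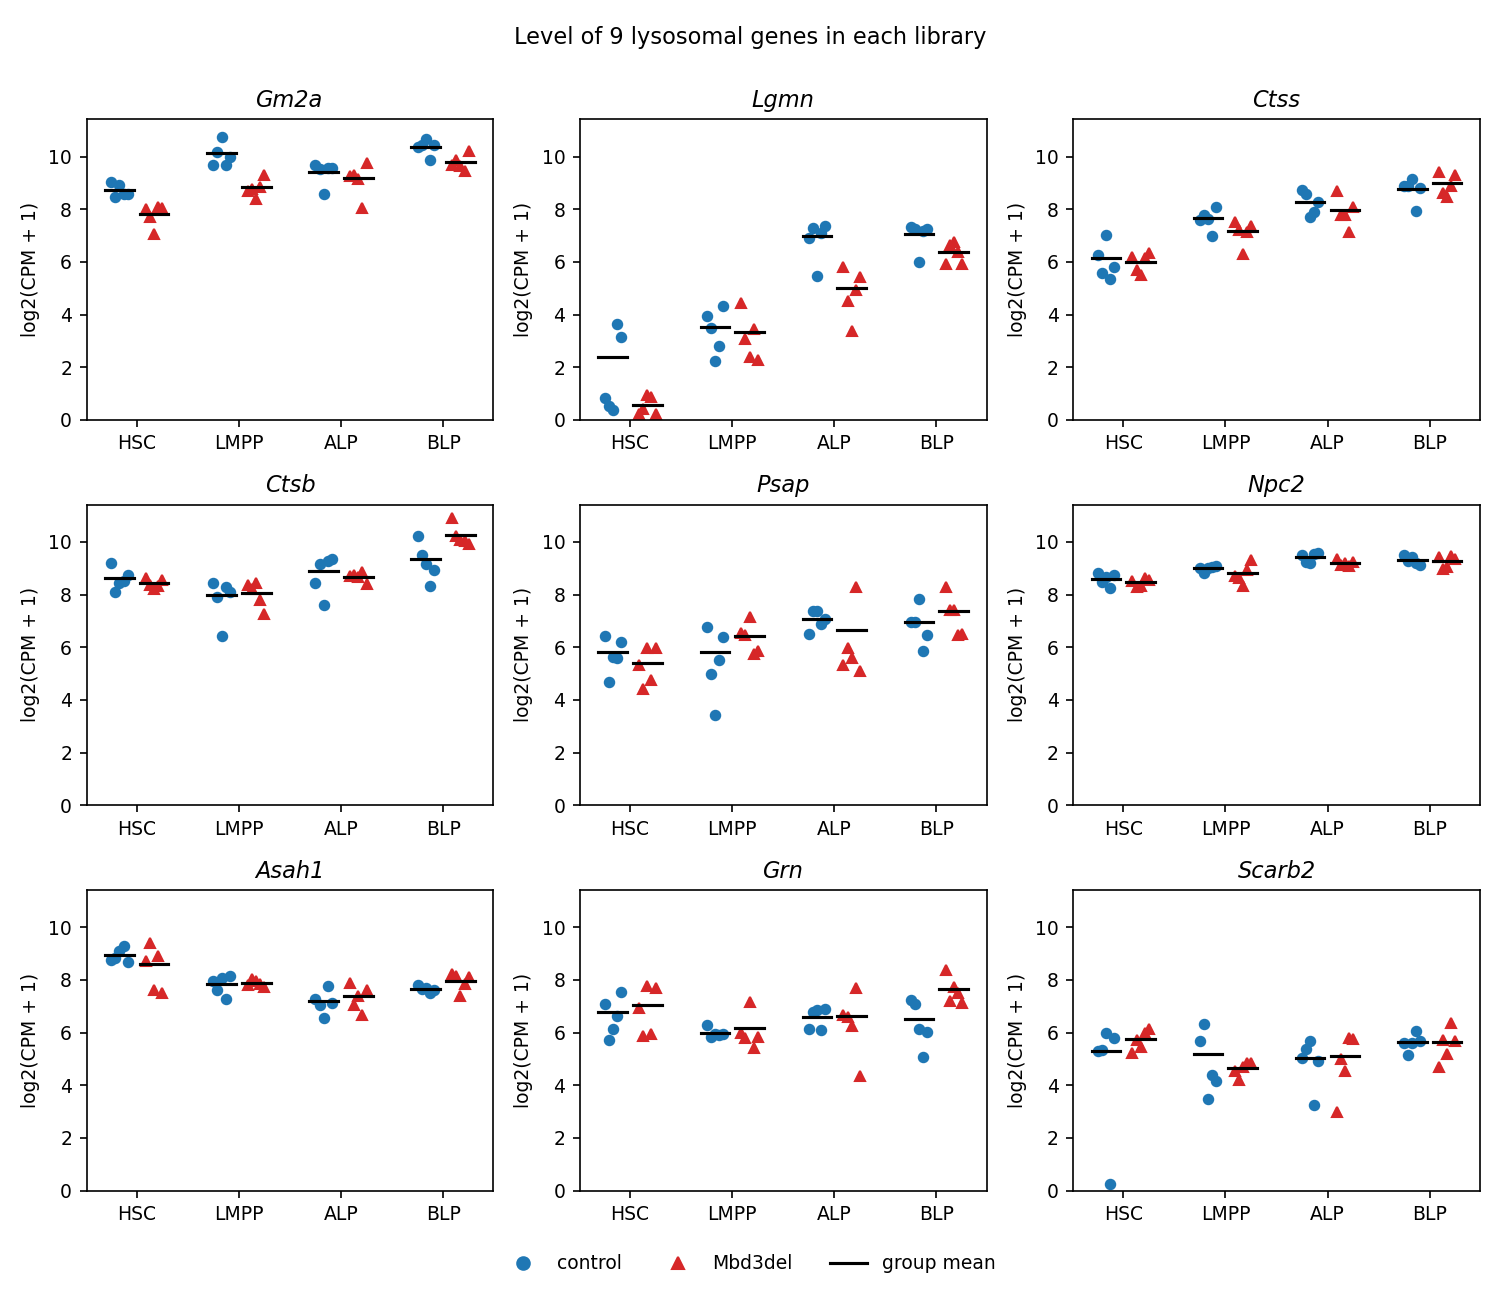
Level of 9 members in each library, as log2(CPM + 1), by population. Circles are control and triangles Mbd3del libraries, and black lines are the group means. Gm2a does not overlap between genotypes in HSC and LMPP, Lgmn goes from under 12 CPM in HSC to 59.2 CPM or more in BLP, and Npc2 varies least within groups.

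The second question was how the set runs over the 4 populations. In control mice the change from HSC to LMPP called 4 of the 35 members tested, 2 higher and 2 lower, while 2.82% of all genes were called higher and 3.18% lower. The median log2 fold change was -0.09 over the members and -0.00 over all genes. Ctss rose, from 39.8, 46.5, 55.5, 76.1 and 131 CPM in HSC to 126, 191, 196, 219.8 and 269 CPM in LMPP. The groups overlapped slightly, through the HSC library of mouse10372, and the log2 fold change was 1.62 ± 0.35 (SE), adjusted p = 0.013. Gm2a rose from the HSC values given above to 811 to 1737 CPM without overlap (log2 fold change 1.52 ± 0.27 (SE), adjusted p = 0.00406). Ctsl fell, from 157, 160.2, 174, 186 and 189.5 CPM to 32.3, 50.6, 77.03, 82.5 and 125 CPM without overlap (log2 fold change -1.19 ± 0.29 (SE), adjusted p = 0.0256). Asah1, the acid ceramidase gene, fell from 411, 434, 451, 542 and 620.3 CPM to 155, 194, 245, 270.2 and 285 CPM without overlap (log2 fold change -0.997 ± 0.24 (SE), adjusted p = 0.0241).

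Of these 4, Gm2a did not lose its call in any setting tried, and the others depended on single mice. Ctss had an adjusted p of 0.0774 without mouse10358 and 0.0930 without mouse10381. Ctsl had 0.0998, 0.116 and 0.0647 without mouse10358, mouse10380 or mouse10381, and 0.116 without mouse10372 and mouse10381 together. Asah1 had 0.0650, 0.111 and 0.133 without mouse10357, mouse10358 or mouse10380, and 0.0561 with mouse as a block, which compares populations within each animal.

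The next steps moved few members in control mice. From LMPP to ALP 1 of 37 members was called higher, beside 0.469% of all genes, and 0 lower, beside 0.469%. This was Lgmn, which rose from 3.70, 5.91, 10.3, 14.5 and 18.9 CPM to 43.1, 120.2, 137, 157 and 164 CPM without overlap (log2 fold change 3.53 ± 0.51 (SE), adjusted p = 0.00277). The members' median was 0.32, beside 0.03 over all genes, and 25 of the 37 were positive. By edgeR 0 members were called lower there, 6 had an unadjusted p under 0.05 in either direction, and DESeq2 called 1 in all. From ALP to BLP 0 of 37 were called, beside 0.238% of all genes called higher and 0.0275% lower. By unadjusted p 3 were under 0.05, and DESeq2 called 1, Gm2a.

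Over the whole path from HSC to BLP, 8 of 37 members were called in control mice, 5 higher beside 7.34% of all genes and 3 lower beside 8.33%. The count of 3 lower lies near that share. The median was 0.14 over the members and -0.01 over all genes. Lgmn had the largest change. HSC libraries held 0.311, 0.443, 0.798, 7.93 and 11.4 CPM, of which the highest 2 (mouse10381 and mouse10380, 57 and 64 counts) stood apart from the other 3 (1 to 4 counts). BLP libraries held 63.1, 143, 149, 151 and 162 CPM, all above every HSC library, and the log2 fold change was 5.05 ± 0.80 (SE), adjusted p = 0.000508. Ctss rose to 246, 446, 472, 476 and 561 CPM in BLP, also without overlap (log2 fold change 2.75 ± 0.35 (SE), adjusted p = 7.1e-05). Gm2a rose to 946, 1311, 1379, 1391 and 1610.5 CPM (log2 fold change 1.73 ± 0.19 (SE), adjusted p = 1.98e-05). Npc2 rose less, from 302, 358, 408, 427 and 446 CPM to 559, 583, 616, 698 and 726 CPM without overlap (log2 fold change 0.81 ± 0.15 (SE), adjusted p = 0.00179). These 4 kept their call in every alternative tried.

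Psap, at chr10:60277627-60302597, encodes prosaposin, the precursor of the saposins, which activate lipid hydrolases. It rose from 24.9, 47.5, 48.8, 72.7 and 86.2 CPM to 57.2, 87.4, 124, 125 and 226 CPM with overlap (log2 fold change 1.26 ± 0.38 (SE), adjusted p = 0.0381). The call was lost with mouse as a block (adjusted p = 0.0657) and without mouse10357 (0.0542), mouse10358 (0.116), mouse10372 (0.179), mouse10381 (0.0583) or both mouse10372 and mouse10381 (0.255). Asah1 fell to 183, 198, 203, 209 and 222 CPM in BLP, below every HSC library (log2 fold change -1.20 ± 0.18 (SE), adjusted p = 0.000317). Lamp2 fell from a mean of 428 ± 68.7 to 193 ± 91.3 CPM (log2 fold change -1.08 ± 0.27 (SE), adjusted p = 0.0142), and Ctsc, which activates granule proteases, from 342 ± 68.96 to 165 ± 53.3 CPM (log2 fold change -0.97 ± 0.24 (SE), adjusted p = 0.0129). Both overlapped between the populations. Lamp2 had an adjusted p of 0.0665 without mouse10358, 0.0573 without mouse10372 and 0.176 without mouse10372 and mouse10381, and Ctsc 0.0730 without mouse10372 and 0.148 without both.

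In Mbd3del mice the same path was tested separately. From HSC to LMPP 3 of 37 members rose, beside 2.99% of all genes called higher, and 0 were called lower, beside 3.75%. Lgmn rose from 0.169, 0.18, 0.336, 0.82 and 0.918 CPM, which rest on 1 to 6 counts a library, to 3.87, 4.29, 7.33, 9.93 and 20.6 CPM (log2 fold change 4.22 ± 0.95 (SE), adjusted p = 0.0134). Ctss rose from 44.8, 50.8, 70.3, 71.1 and 79.03 to 77.5, 141, 146, 163 and 183 CPM with a slight overlap (log2 fold change 1.22 ± 0.28 (SE), adjusted p = 0.0139), and Gm2a from 131, 209, 259, 266 and 272 to 332, 418, 441, 463 and 638 CPM without overlap (log2 fold change 1.05 ± 0.26 (SE), adjusted p = 0.0217). None of the 3 calls held throughout. Lgmn had an adjusted p of 0.0562 with the mouse block, 0.0921 without mouse10360 and 0.0581 without mouse10361. Ctss had 0.0645, 0.0774 and 0.0519 without mouse10360, mouse10361 or mouse10384, and Gm2a 0.0581, 0.0873 and 0.0906. By edgeR 11 members had an unadjusted p under 0.05 in this step and DESeq2 called 6.

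From LMPP to ALP in Mbd3del mice 0 of 37 members were called, beside 1.11% of all genes higher and 1.07% lower. By unadjusted p 5 were under 0.05, and DESeq2 called 2, Ctsb and Lgmn. From ALP to BLP 1 of 37 rose, beside 0.507% of all genes, and 0 fell, beside 0.129%. The gene was Ctsb, from 338, 403, 413, 428 and 467 CPM in ALP to 959, 1050.5, 1079, 1196 and 1935 CPM in BLP, where every BLP library lay above every ALP library (log2 fold change 1.67 ± 0.20 (SE), adjusted p = 0.000825). Ctsb kept this call under every alternative tried. With mouse as a block a second member, Ctsl, was also called, and 10 members had an unadjusted p under 0.05. DESeq2 called 6: Ctsb, Ctsh, Ctsl, Ctss, Ctsz and Lgmn. Between populations no share over all genes is given here for DESeq2 calls or unadjusted p. Such counts of members therefore cannot be weighed against all genes. The members' median was 0.17 beside -0.03 over all genes, and 0.48 without Mbd3del mouse10376, whose ALP library held 311.4 CPM of Psap against 33.3 to 61.4 CPM in the other 4.

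From HSC to BLP in Mbd3del mice 11 of 36 members were called, 9 higher beside 9.48% of all genes and 2 lower beside 9.83%. The count of 2 lower lies below that share. The median was 0.24 over the members and -0.11 over all genes. Lgmn rose from the 13 counts in all 5 HSC libraries to 59.2, 60.3, 82.3, 99.5 and 106 CPM in BLP (log2 fold change 7.51 ± 0.54 (SE), adjusted p = 1.86e-07). The size of that fold rests on those few HSC counts. Ctss rose to 352, 396, 466, 623 and 683 CPM (log2 fold change 3.20 ± 0.27 (SE), adjusted p = 1.11e-06), and Psap from 20.2, 25.8, 39.4, 61.5 and 61.6 to 87.5, 89.9, 169, 169 and 311 CPM (log2 fold change 2.21 ± 0.38 (SE), adjusted p = 0.000693). All BLP libraries of these genes lay above all HSC libraries. Gm2a rose to 701, 800.0, 813, 934 and 1193 CPM without overlap (log2 fold change 2.15 ± 0.26 (SE), adjusted p = 3e-05). Ctsb rose from 298, 324, 333, 374 and 398 CPM to the BLP values above without overlap (log2 fold change 2.04 ± 0.23 (SE), adjusted p = 1.54e-05). Ctsa, the cathepsin that also protects beta-galactosidase and sialidase, rose from a mean of 172 ± 9.60 to 327 ± 130.3 CPM (log2 fold change 1.11 ± 0.25 (SE), adjusted p = 0.00531). Ctsz (1.04, adjusted p = 0.00426), Npc2 (1.002, adjusted p = 0.00226) and Cd164 (0.74, adjusted p = 0.0322) also rose on the log2 scale.

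The 2 members that fell in Mbd3del mice were Gaa and Smpd1. Gaa fell from 45.7, 51.1, 52.7, 146 and 180.0 CPM in HSC to 8.68, 14.8, 25.8, 26.2 and 26.9 CPM in BLP without overlap (log2 fold change -1.93 ± 0.45 (SE), adjusted p = 0.00662). Smpd1, the acid sphingomyelinase gene, fell from 18.2, 29.2, 40.4, 65.02 and 83.7 to 7.43, 8.79, 11.5, 13.5 and 22.2 CPM with a small overlap (log2 fold change -1.65 ± 0.47 (SE), adjusted p = 0.0213). With mouse as a block the adjusted p was 0.0538 for Gaa, 0.0511 for Smpd1 and 0.0592 for Cd164. Without mouse10384 it was 0.0547, 0.135 and 0.112, and Smpd1 was also lost without mouse10360 (0.0540) or mouse10376 (0.0599), and Cd164 without mouse10360 (0.160) or mouse10365 (0.119).

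**Figure D4:**
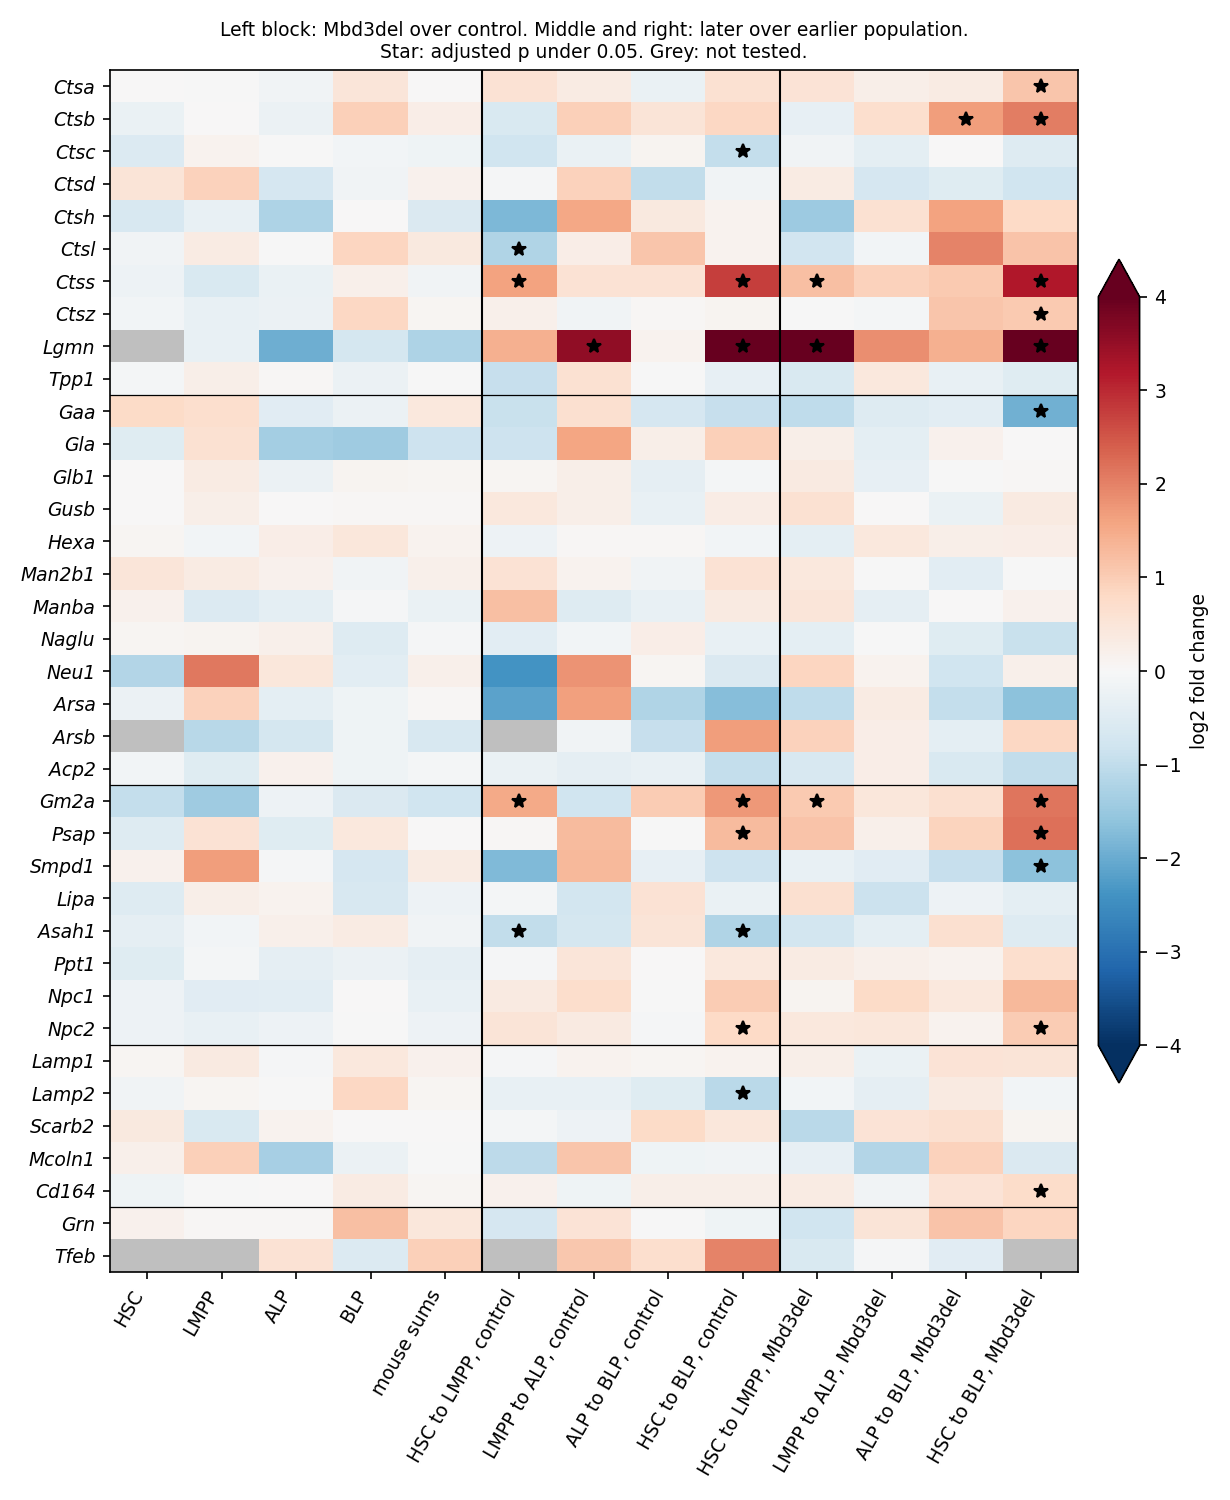
Log2 fold changes of the 37 members (vertical axis, by class) in 13 comparisons (horizontal axis), red for higher and blue for lower. The colour scale ends at ±4, stars mark an adjusted p under 0.05 and grey cells were not tested. The 5 genotype columns carry no star, and Lgmn, Ctss and Gm2a carry 4 stars each between populations.

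The calls in the 2 genotypes were compared by testing the difference itself, the Mbd3del change minus the control change. No member was called for any step. For HSC to LMPP, LMPP to ALP, ALP to BLP and HSC to BLP, 0 of 37 members were called by edgeR, 1, 3, 4 and 4 had an unadjusted p under 0.05, and DESeq2 called 0 each. Over all genes 0%, 0%, 0% and 0.0472% were called. For HSC to BLP the 4 members were Ctsb (difference 1.23 ± 0.38 (SE), unadjusted p = 0.00335, adjusted p = 0.431), Lgmn (2.47 ± 0.96 (SE), unadjusted p = 0.017, adjusted p = 0.535), Ctsz (0.96 ± 0.38 (SE)) and Lamp2 (0.98 ± 0.42 (SE)), all positive. The same 4 had an unadjusted p under 0.05 from ALP to BLP, with differences of 1.15 for Ctsb, 1.26 for Lgmn, 1.05 for Ctsz and 0.82 for Lamp2. From LMPP to ALP they were Ctsd (-1.56), Lgmn (-1.65) and Gm2a (1.26), and from HSC to LMPP Neu1 (3.30, with 2 control LMPP libraries at 0). The intervals were wide, lying inside a log2 difference of ±1 for 4, 7, 6 and 4 of the 37 members. The rise of Ctsb in Mbd3del BLP is thus not shown to differ from control mice. The 2 genotypes share no libraries in these tests. Outside the set, Cd63 was called for HSC to BLP (difference 2.92 ± 0.36 (SE), edgeR adjusted p = 0.000213). Cd68 was not (0.21 ± 0.60 (SE), edgeR adjusted p = 0.985).

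**Figure D5:**
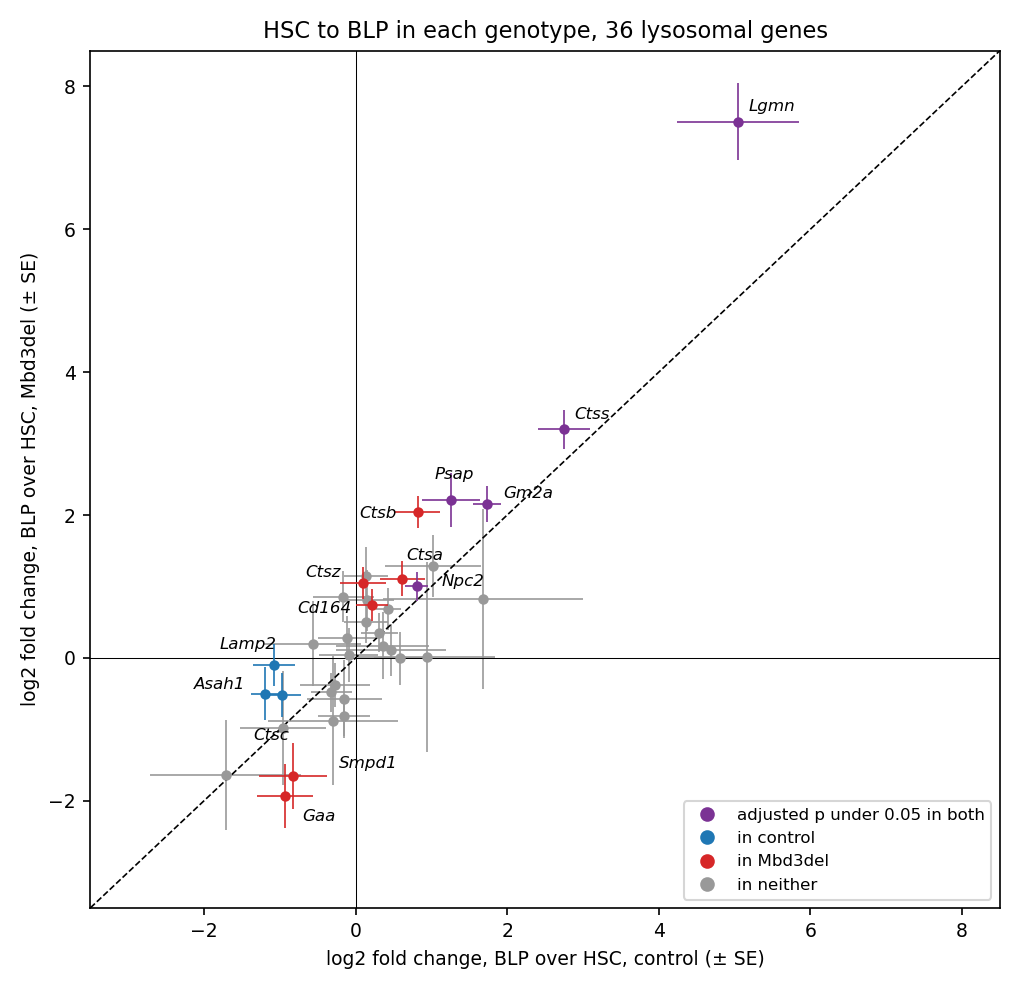
Log2 fold change from HSC to BLP in control (horizontal axis) and Mbd3del mice (vertical axis) for the 36 members tested in both, with bars ± SE and a dashed line of equal change. Lgmn, Ctss, Gm2a, Psap and Npc2 were called in both genotypes, and Lgmn lies highest at 5.05 and 7.51.

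Markers of other cells moved beside these changes, in both directions. The 12 dendritic markers summed to 539 to 879 CPM in control HSC, 325 to 421 CPM in LMPP, 835 to 1325 CPM in ALP and 929 to 1977 CPM in BLP. In Mbd3del mice the sums were 788 to 1115, 608 to 899, 1026 to 1426 and 1999 to 3948 CPM. In control mice every LMPP sum lay below every HSC sum, and every BLP sum lay above every HSC sum. The list was split from HSC to LMPP. Means of Cd74 (334 to 56.7 CPM), H2-Aa (83.9 to 16.4 CPM), H2-Eb1, Zbtb46, Siglech and Xcr1 fell. Those of Irf8 (5.64 to 35.2 CPM), Bst2 (123 to 156 CPM), Ccr9, H2-Ab1, Itgax and Batf3 rose. From HSC to BLP in control mice 9 dendritic markers were tested, 5 with positive and 4 with negative log2 fold changes. Siglech, Bst2, Irf8 and Ccr9 were called higher, while Cd74 fell from a mean of 334 to 76.0 CPM. In Mbd3del mice 10 were tested, 5 called higher and 1, H2-Eb1, lower. In control BLP 11 of the 12 had counts, and Batf3 was at 0. The 15 monocyte and neutrophil markers summed to 919.7 to 1495 CPM in control HSC and 197 to 417 CPM in control BLP. Lyz2, which fell from a mean of 911 to 134 CPM, and Prtn3, from 209.8 to 3.22 CPM, made up most of the HSC sum. On the same list Mpo (2.06 to 153 CPM, log2 fold change 6.25) and Ctsg (0.332 to 10.7 CPM) rose. In all 2 of the 6 tested were called higher and 3 lower in control, and 3 of 8 higher (Mpo, Ctsg and Ccr2) and 4 lower in Mbd3del mice. The macrophage markers summed to at most 74.9 CPM in any library. Csf1r had the highest mean of that list, 32.6 CPM in control ALP. From HSC to BLP in Mbd3del mice Csf1r was called higher, from 0 to 0.169 CPM to 15.8 to 27.3 CPM (edgeR adjusted p = 2.47e-05). On the same list mean Spic (10.3 to 0 CPM), Vcam1 (4.04 to 0 CPM), Mertk, C1qc, Adgre1 and Mrc1 fell, while C1qa and C1qb rose. The median sum of the list was 16.1 CPM in Mbd3del HSC and 21.8 CPM in Mbd3del BLP. The means of C1qa, C1qb and C1qc were at most 3.67 CPM. The part of such cells in the changes of the set was not tested.

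Other lysosomal genes changed in both directions from HSC to BLP. In control mice 8 of 38 tested were called, 2 higher and 6 lower, beside 7.34% of all genes higher and 8.33% lower. The count of 2 higher lies near that share. The higher were Pld4, a nuclease of the endolysosome (3.88 to 209.8 CPM, log2 fold change 5.87), and the ion channel gene Tpcn1 (2.30). The lower included Creg1 (-2.002), Laptm4b (-1.88) and Cd63. In Mbd3del mice 12 of 38 were called, 4 higher with Pld4 (5.84), Sumf1 (1.63), Tmem192 (1.19) and Cst3 (0.81), and 8 lower with Galc, Sgsh, Cln3 and Cd63 among them, beside 9.48% and 9.83% of all genes. The 4 higher again lie near that share. The V-ATPase list had 0 of 16 called in control by edgeR, with 1 at an unadjusted p under 0.05 and 0 called by DESeq2. In Mbd3del mice Atp6ap1 rose (0.80) and Atp6v0a1 fell (-2.85). Among the TFEB family and nutrient sensing genes, Mitf and Tfec fell in control mice, Tfec from a mean of 109.7 to 1.15 CPM, and Tfec fell in Mbd3del mice from 159 to 0.0488 CPM. These are relatives of TFEB that bind the same letters. In autophagy Uvrag rose and Gabarapl1 fell in both genotypes, with log2 fold changes of 1.51 and -1.58 in control and 1.06 and -1.96 in Mbd3del mice. Among the delivery genes Sort1, encoding sortilin, fell in control mice (-2.19). In Mbd3del mice 0 of 16 were called by edgeR, 3 had an unadjusted p under 0.05 and DESeq2 called 2. By edgeR the genes named were all those called in these lists of 16, 17, 14 and 16 genes. Their counts lie near or below the shares of all genes given above, so they are not shown to be changes of these lists.

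The protocol does not mark strand, so reads from overlapping genes cannot be told apart. Of the members named above, Ctsa, Ctsb, Ctsc, Ctsd, Ctsz, Lamp1, Npc1, Ppt1, Arsa, Arsb and Grn overlap another annotated gene, while Lgmn, Gm2a, Ctss, Psap and Npc2 do not.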

How the data were processed

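The authors deposited whole-number read counts per gene and library, made with STAR 2.5.2b and HTSeq 0.6.1p1 on the GRCm38 build, per the submitters' processing notes. Neither the annotation nor the strand option of the counting is stated in the labels. The 79325 rows named as repeat regions (0.205% to 2.28% of counts), which the labels do not define, were left out, and 49326 of the 49585 gene rows were named through GENCODE M21.

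Counts were fitted for all genes in R 4.3.3 with edgeR 4.0.16 (TMM scaling, filterByExpr with a minimum count of 10 and total of 15, robust quasi-likelihood F test, Benjamini-Hochberg threshold 0.05). SE is the absolute log2 fold change over the square root of F. The scripts were tested on simulated data. Genotypes were compared within each population, with 5 libraries against 5, and with the counts of each mouse summed. Populations were compared within each genotype, and those changes between genotypes. Per the labels the 4 populations of a mouse come from the same animal. Their same-mouse deviations correlated at -0.185 to 0.214, with medians of -0.0115 to 0.0601. Mouse as a block was an alternative, as were DESeq2 1.42.0, its size factors, no filter, leaving out mice, labelled sex, 1 fit of all 40 libraries, and limma 3.58.1 on mean log2 CPM (prior count 2).

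The members and gene lists were chosen with earlier results of these data known. Every member called was named, with full statistics for at most 6 per direction by size of change and a mean of at least 5 CPM. Values in every library were to be given for members called between genotypes and for the largest and smallest change in the mouse sums. Members named without a call were picked after their values were seen. The libraries hold 1 pool per mouse, and PCR copies were not removed by molecular identifiers, so p-values measure the spread between these pools. The labels give 150 cells for HSC and 100 for the other populations, and the series text gives the reverse.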

Additional observations from a re-analysis of the deposited data

Results flagged for a closer look

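In 16 members and their summed level, each group of 5 libraries was searched for a single library far from the other 4. This was found in 7 of 136 groups, and chance alone gives about 5%. Mbd3del mouse10376 had the highest summed level of its ALP group (5885 CPM) and the highest Psap (311.4 CPM). Control mouse10372 had the lowest Gm2a in ALP (378 CPM) and the lowest Lgmn in BLP (63.1 CPM), and its Lgmn was also the lowest of the control ALP libraries. Mbd3del mouse10360 had the highest Ctsb in BLP (1935 CPM) and the highest Lamp2 in ALP (392 CPM). In HSC the highest Lamp2 was in Mbd3del mouse10361 (667 CPM).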

How the results depend on the processing

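Among the recomputed log2 fold changes of called members none changed sign, 225 kept and 40 lost their call. The members' median changed sign between genotypes in LMPP, BLP and the mouse sums, from HSC to LMPP in both genotypes (-0.24 to 0.14 in control and -0.12 to 0.28 in Mbd3del mice), from ALP to BLP in control (-0.03 to 0.16) and from LMPP to ALP in Mbd3del mice (-0.23 to 0.17), and kept it in the other comparisons under the settings tried. DESeq2 called more members than edgeR between genotypes in LMPP (1), ALP (1), BLP (2) and the mouse sums (2), in control from HSC to LMPP (5), ALP to BLP (1) and HSC to BLP (9), and in Mbd3del mice 6 from HSC to LMPP, 6 from ALP to BLP, 2 from LMPP to ALP and 14 from HSC to BLP. Over all genes it called 14, 36, 14, 158 and 164 between genotypes in HSC, LMPP, ALP, BLP and the mouse sums, where edgeR called 2, 2, 2, 8 and 24. Its calls over all genes between populations are not given here. Without the filter on low counts 1 member was called in LMPP and in the mouse sums, and 3 from ALP to BLP in Mbd3del mice. The fit of all libraries called 1 in LMPP, limma 1 in the mouse sums, and size factors in place of TMM 2 from ALP to BLP in Mbd3del mice. Without control mouse10372 and mouse10381, 1 was called in the mouse sums and 5 from HSC to BLP in control.

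With mouse as a replicate block, 2 members were called from ALP to BLP in Mbd3del mice in place of 1. The calls lost under this pairing stand beside their genes, and it changed no other call of the set.

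Leaving out 1 mouse at a time gave 0 to 1 called in the mouse sums, 2 to 4 from HSC to LMPP and 5 to 9 from HSC to BLP in control, and 0 to 3 from HSC to LMPP and 1 to 2 from ALP to BLP in Mbd3del mice. The cause of these shifts was not tested. Counting error limits genes near 3 counts, such as Lgmn in HSC and Tfeb.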
